A study of Mus musculus with 6 samples.

Results

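The genes described are the long protein-coding genes of the mouse genome, taken as every GENCODE M21 protein-coding gene of chr1 to chr19 whose annotated end lies at least 200 kb from its start. The rule uses the annotation alone and finds 953 of 20807 protein-coding genes (4.58%), with a median length of 327.1 kb and 55 genes of 1 Mb or more. The measurements are peak lists of H3K79me2 ChIP-seq, a sequencing of the DNA bound by histone H3 dimethylated at lysine 79, from Neuro-2a (N2a) cells, a mouse neuroblastoma line. Cells of the control group (CTR) received the non-targeting plasmid pLKO.1-shCTR and cells of the NPM1 KD group received pLKO.1-shNpm1, an shRNA against nucleophosmin 1. Both groups were selected with puromycin from the day after transfection and taken at day 3, with 2 biological replicates each, which the study's methods give as separate passages and transfections of the same line. The NPM1 level itself is not measured in these lists. Each replicate has a list of broad peaks and a list of narrow peaks on mm10.

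H3K79me2 is laid down by DOT1L, the methyltransferase that travels with factors of the elongating RNA polymerase II complex, and is known as a mark of transcribed gene bodies that is richest just after the transcription start site (TSS) and fades toward the 3′ end. In a gene of ordinary size the mark soon meets the gene's end, whereas a long gene leaves room to see where it stops. Long genes also hold many of the adhesion molecules, channels and signalling scaffolds of neurons, and several lie at common fragile sites, regions prone to breakage when replication is slowed. NPM1 is a nucleolar histone chaperone. In these cells 5 of 8 sympathetic neuroblast genes examined (Phox2a, Hand2, Gata2, Isl1 and Tubb3) carried the mark at the start in all 4 libraries, Gata3, Th and Dbh carried none, and 0 of 5 markers of other tissues (Ptprc, Epcam, Cdh5, Alb, Myod1) carried it in any library.

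The start sequences of the long genes differed between those that carried the mark and those that did not, and 5 promoters are shown for that reason. Each is 300 bases of RefSeq sequence on GRCm38.p6, 250 before and 50 after the RefSeq start, read 5′ to 3′ on the gene's strand, with every CpG in capitals. Grip1 (chr10:119453784-119454083, plus strand), Maml3 (chr3:52104957-52105256, minus strand) and Ptprg (chr14:11553303-11553602, plus strand) were the matched genes with the longest marked stretches, and Ctnna3 (chr10:63429848-63430147, plus strand) and Lrrc4c (chr2:96317919-96318218, plus strand) were the longest matched genes with no broad peak anywhere in the body.
Grip1: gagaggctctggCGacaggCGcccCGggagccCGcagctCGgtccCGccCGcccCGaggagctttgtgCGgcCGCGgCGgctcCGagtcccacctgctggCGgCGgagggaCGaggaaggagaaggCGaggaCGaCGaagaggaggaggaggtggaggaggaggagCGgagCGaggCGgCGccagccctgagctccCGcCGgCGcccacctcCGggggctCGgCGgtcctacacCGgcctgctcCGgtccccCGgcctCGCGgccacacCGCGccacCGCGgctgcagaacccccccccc
Maml3: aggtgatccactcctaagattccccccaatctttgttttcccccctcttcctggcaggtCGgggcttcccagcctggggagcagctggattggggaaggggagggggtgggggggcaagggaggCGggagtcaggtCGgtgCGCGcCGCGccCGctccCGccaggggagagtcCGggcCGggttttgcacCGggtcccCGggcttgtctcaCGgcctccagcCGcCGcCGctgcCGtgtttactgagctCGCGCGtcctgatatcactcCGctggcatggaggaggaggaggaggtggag
Ptprg: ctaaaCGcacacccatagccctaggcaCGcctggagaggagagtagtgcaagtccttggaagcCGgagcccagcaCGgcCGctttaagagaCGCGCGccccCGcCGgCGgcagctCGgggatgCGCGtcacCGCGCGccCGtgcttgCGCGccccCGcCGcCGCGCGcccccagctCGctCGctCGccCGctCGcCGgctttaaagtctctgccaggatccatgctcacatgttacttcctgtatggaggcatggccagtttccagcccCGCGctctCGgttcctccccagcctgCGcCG
Ctnna3: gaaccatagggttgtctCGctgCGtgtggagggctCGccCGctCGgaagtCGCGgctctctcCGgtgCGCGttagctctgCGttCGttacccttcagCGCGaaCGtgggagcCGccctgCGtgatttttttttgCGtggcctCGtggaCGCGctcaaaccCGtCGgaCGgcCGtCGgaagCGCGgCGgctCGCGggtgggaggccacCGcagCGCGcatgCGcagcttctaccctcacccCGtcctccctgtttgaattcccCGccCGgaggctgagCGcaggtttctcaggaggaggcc
Lrrc4c: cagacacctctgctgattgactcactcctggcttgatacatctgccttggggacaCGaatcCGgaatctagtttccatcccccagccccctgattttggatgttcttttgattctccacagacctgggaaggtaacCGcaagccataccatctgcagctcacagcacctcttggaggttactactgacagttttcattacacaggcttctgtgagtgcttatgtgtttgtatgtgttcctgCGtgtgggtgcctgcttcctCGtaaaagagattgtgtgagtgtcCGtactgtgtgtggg

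Grip1, Maml3 and Ptprg have 38, 22 and 36 CpGs in this window. Among the unmarked genes Ctnna3 has 39, as many as the marked genes, and Lrrc4c has 6. The same window was read around the annotated start of every gene from the GRCm38 sequence, and a CpG count of at least 0.6 times the number that its C and G content gives was taken as CpG-rich. Of the 360 long genes marked at the start in all 4 libraries 78.3% were CpG-rich, against 45.8% of the 570 marked in none. Over all protein-coding genes the shares were 75.6% of marked and 17.6% of unmarked genes, and 45.5% of all promoters. In genes of 100 to 200 kb they were 77.6% of marked and 34.8% of unmarked genes. These shares are given without a test. Among marked long genes, 81.8% of those whose marked stretch reached 50 kb and 73.5% of those with a shorter one were CpG-rich. The letters TATAAA, searched on both strands, stood in 5.56% of long gene promoters and in 12.7% of all promoters.

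A gene was called marked at the start where a broad peak touched the first 3 kb of its body. By this measure 374 and 361 long genes were marked in CTR 1 and CTR 2, and 378 and 374 in NPM1 KD 1 and NPM1 KD 2. The groups overlap. The mean share in the 2 libraries of a group was 38.6% (SD 0.965) for CTR and 39.5% (SD 0.297) for NPM1 KD (exact two-sided permutation test over libraries, p = 0.667). The same 360 genes (37.8%) were marked in all 4 libraries, 570 (59.8%) in none and 23 in some. Of the genes marked in none, 139 held a broad peak elsewhere in the body in at least 1 library, and 431 of all 953 long genes held no broad peak at all in any library. Of the 360 marked genes 278 overlapped no other protein-coding gene, whose peaks could otherwise be counted with theirs. The longest genes were mostly unmarked, with 47 of the 218 genes of 500 kb upward marked at the start in all 4 libraries.

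For a marked gene, the run was defined as the distance from the TSS to the end of the chain of broad peaks that begins at the start, with gaps of at most 5 kb crossed. The median run of the 360 genes was 65.3 kb in CTR 1, 58.6 kb in CTR 2, 74.4 kb in NPM1 KD 1 and 71.9 kb in NPM1 KD 2, or 19.3% to 23.7% of the body. Runs had a wide spread. The mean run over the 4 libraries was under 10 kb in 42 genes, 10 to 50 kb in 109, 50 to 100 kb in 63, 100 to 200 kb in 89 and 200 kb or more in 57. Length of the gene did not order them, with a Spearman coefficient of 0.016 between mean run and gene length over these 360 genes, given as a description. The first intron did so weakly (coefficient of 0.257). The median of the mean run was 48.9 kb in the 192 genes with a first intron under 50 kb, 88.9 kb in the 77 with one of 50 to 100 kb and 129.9 kb in the 91 with a longer one. The runs ended inside an intron in 87.8% to 89.2% of genes.

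**Figure D1:**
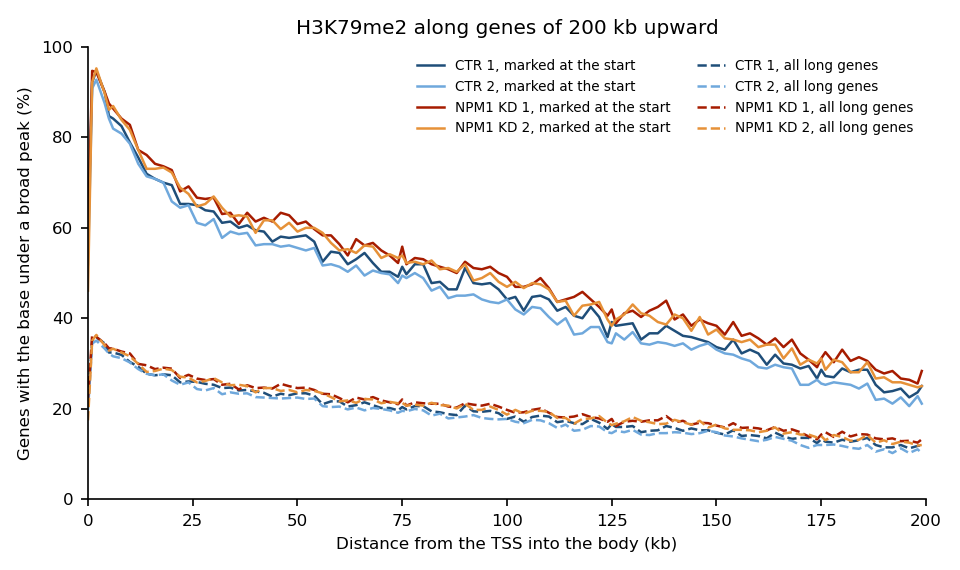
Share of genes (%, y axis) whose base at a given distance from the TSS (kb, x axis) lies under a broad peak, by library, for the 360 long genes marked at the start (solid) and all 953 (dashed). The share is highest at 1 to 2 kb, then falls with distance apart from small local rises, and 33.1% to 38.3% of marked genes are still covered at 150 kb.

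Along the body the mark was densest just inside the gene. At 2 kb from the TSS 92.8% to 95.3% of the 360 marked genes lay under a broad peak. At 10 kb the shares were 78.9% and 78.6% in CTR and 82.8% and 81.7% in NPM1 KD, at 100 kb 44.2% and 44.2% against 49.2% and 46.9%, and at 150 kb 33.6% and 33.1% against 38.3% and 37.5%. At these 3 distances both NPM1 KD libraries were above both CTR libraries. At 0, 1, 2, 40 and 125 kb and at the farthest distance examined the groups overlapped. The last 3 kb of the body were touched in 11.7%, 8.89%, 13.3% and 13.3% of marked genes in the order CTR 1, CTR 2, NPM1 KD 1 and NPM1 KD 2. The narrow lists, which give a summit for each peak, put the strongest summit of a marked gene at a median of 2.05, 2.36, 2.15 and 3.00 kb from the TSS in the same order. Ranked by fold enrichment among all narrow peaks of a library, the summits within 5 kb of these starts had a median percentile of 86.7 to 88.2, those at 5 to 20 kb of 51.7 to 53.9 and those beyond 200 kb of 40.6 to 42.4.

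The longest runs took in most or all of a very long gene and changed little between libraries. Magi1 (chr6:93675455-94283917), a membrane-associated scaffold at cell junctions, had a run of 499.7, 499.7, 499.7 and 498.5 kb in CTR 1, CTR 2, NPM1 KD 1 and NPM1 KD 2, out of a body of 608.5 kb. Its 4 run ends lay within 1.14 kb of each other. Grip1 (chr10:119453830-120087261), a PDZ scaffold that binds AMPA receptors, had runs of 487.0, 483.6, 494.6 and 490.6 kb of 633.4 kb, with both NPM1 KD libraries a few kb longer. Maml3, a coactivator of Notch signalling, was marked over 415.0, 412.9, 415.5 and 414.9 kb of 419.2 kb. Ptprg, a receptor tyrosine phosphatase, stopped at 380.3, 379.2, 380.6 and 380.4 kb of 688.5 kb, so that its far part stayed outside the run in every library. Gse1, a coiled-coil protein found in histone deacetylase complexes, was inside the run over its whole 352.9 kb in all 4 libraries, as was Rere, a corepressor of the atrophin family, over at least 340.0 of 340.3 kb. Tcf4, an E protein transcription factor, reached 342.3 to 343.8 kb of 345.7 kb. Msi2, an RNA-binding protein of progenitor cells, reached 302.6 to 304.5 kb. Less even were Pard3, a cell polarity scaffold, with 316.0, 301.7, 333.3 and 316.0 kb, and Syt1, the calcium sensor of synaptic vesicles, with 355.9, 253.3, 288.2 and 350.4 kb. In both genes the groups overlap.

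**Figure D2:**
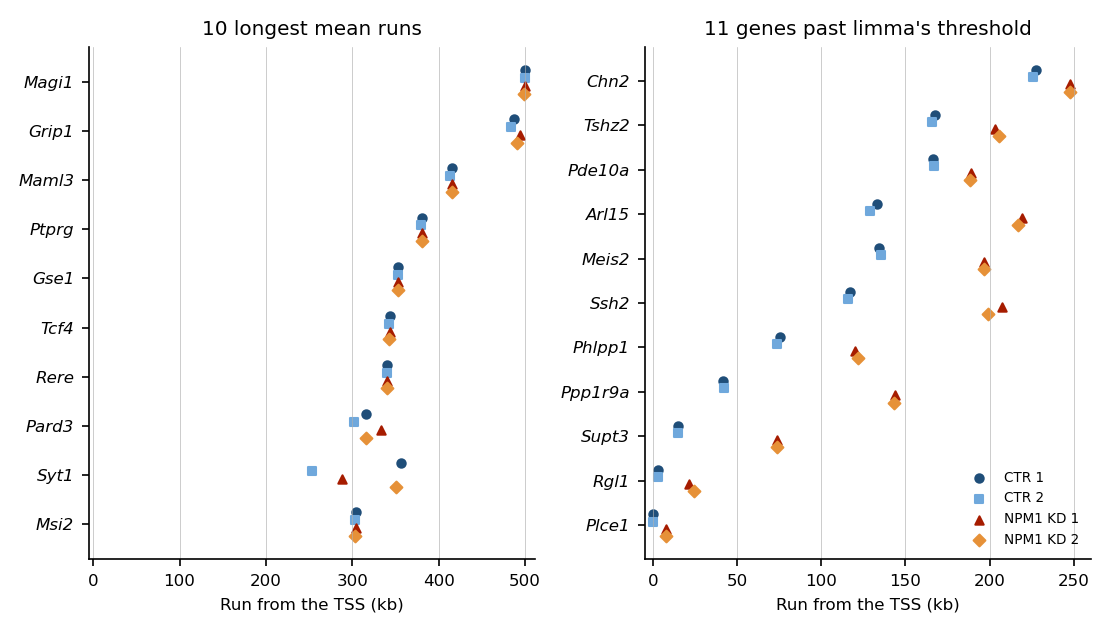
Run from the TSS (kb, x axis) in each of the 4 libraries for the 10 long genes with the longest mean run (left) and the 11 past limma's threshold (right). On the left the libraries lie close together except in Syt1 and Pard3, and on the right both CTR points lie below both NPM1 KD points.

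Broad peaks covered at least 80% of the body in all 4 libraries in 35 long genes. The 5 longest of these were Magi1, Snd1, Maml3, Foxn3 and Unc5c. Snd1, a nuclease-domain protein that binds RNA, was covered over 83.6%, 80.6%, 87.1% and 85.7% of its 460.0 kb, yet its run ended at 170.6 to 170.7 kb in every library. Unc5c, a netrin receptor of axon guidance, was covered over 86.1% to 90.3% and its run ended at 138.3 to 138.4 kb. In both genes the chain stopped at a gap, of 6.08 kb in Snd1 and 7.12 kb in Unc5c with the libraries pooled, and more mark lay beyond it.

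Such gaps set many run ends. With the peaks of the 4 libraries pooled, 177 of the 360 runs stopped at a gap of 5 to 10 kb followed by more mark, 58 at a gap of 10 to 20 kb, 26 at 20 to 50 kb and 26 at 50 kb or more, and 73 had no mark after them. Of the bases in the 5 to 10 kb gaps 51.1% were soft-masked repeats in the GRCm38 sequence, against 23.0% of the bases under peaks in these genes and 30.8% of those in the 10 to 20 kb gaps. The median share per gap was lower, 32.3% in the 5 to 10 kb gaps and 25.5% in the 10 to 20 kb gaps. In 59 of the 177 gaps at least 80% of bases were soft-masked, among them the gaps after Dst and Snd1 (100% each), Unc5c (98.2%), Itpr1 (93.3%) and Arl15 (88.7%). Reads of low mapping quality had been removed before peak calling, and the part of this in the gaps was not tested. The median run accordingly rose with the gap allowed, in CTR 1 from 43 kb with gaps of 2 kb to 118.5 kb with 10 kb and 141.7 kb with 20 kb. Between libraries the 4 run ends lay within 1 kb of each other in 83 of 360 genes, within 5 kb in 158 and within 10 kb in 212, with a median range of 6.98 kb.

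Compared with CTR, the median run of the long genes in the broad lists was longer in both NPM1 KD libraries. The median run was 61.9 ± 4.74 kb in CTR and 73.2 ± 1.75 kb in NPM1 KD (SD, 2 libraries each), a difference of 11.2 kb. The groups do not overlap, and the exact two-sided permutation test over libraries gave p = 0.333, the smallest it allows with 2 against 2. A run over 50 kb was found in 57.8% and 54.7% of marked long genes in CTR and in 60.0% and 59.2% in NPM1 KD (p = 0.333, exact permutation test, n = 2 each). The total length of long gene bodies under broad peaks was 48.6 and 45.8 Mb in CTR and 52.3 and 50.9 Mb in NPM1 KD, of 406 Mb of bodies, a difference of 4.40 Mb (p = 0.333, exact permutation test, n = 2 each). Long genes held 20.5% to 20.8% of all broad peak length in each library, so most of the covered length lay in other places. In the narrow lists the groups overlapped, with a median run of 66.5 kb in CTR 1 and 65.9 kb in NPM1 KD 1. The difference of medians was larger than that of single genes. The median gene gained 1.71 kb in mean run, against 1.03 kb in marked genes of 100 to 200 kb, and the mean run was longer in NPM1 KD in 283 of 360 genes.

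CTR 2 stood apart within its group. It had the fewest peaks, 34845 broad peaks against 44228 to 48764 in the others, and the shortest of the 4 runs in 225 of the 360 genes (62.5%). The background pileup that the fold and p of its narrow peaks give was also the lowest, with a median of 7.65 reads against 8.99 in NPM1 KD 1, 11.8 in NPM1 KD 2 and 11.9 in CTR 1. NPM1 KD 1, next lowest in background, had the longest run in 143 genes. Read totals are not known from the lists. Without CTR 2 the difference of median runs was 7.86 kb, and without CTR 1 it was 14.6 kb. The part of depth in the difference was not tested.

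Gene by gene, both NPM1 KD runs were longer than both CTR runs in 150 of the 953 long genes (15.7%), and this held for 14.5% of all protein-coding genes. The reverse held in 24 long genes (2.52%) and in 1.93% of all genes. The long genes are thus close to the background in both directions. Among genes marked at the start in all 4 libraries, where no run is 0, NPM1 KD lay above in 141 of 360 long genes (39.2%) against 29.4% of all such genes, and CTR lay above in 24 (6.67%) against 4.04%. Both shares were higher in long genes. Runs were clipped at the gene end, and in genes under 20 kb they took up a median of 84.4% to 93.7% of the body, so that runs of different libraries can tie there. For covered bp NPM1 KD lay above in 350 long genes (36.7%) against 23.7% of all genes, and CTR lay above in 19 (1.99%) against 1.48%. When 1 library was left out, fewer libraries had to separate. The run was then longer in NPM1 KD in 166 to 274 long genes and longer in CTR in 38 to 92. The matching shares over all genes were not computed, so these counts have no background. Most of the separations over all 4 libraries were small. The stretch between the farther CTR end and the nearer NPM1 KD end had a median of 0.964 kb in the 141 genes, was under 5 kb in 104 and over 20 kb in 17. In the 24 genes longer in CTR it was under 5 kb in 22.

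**Figure D3:**
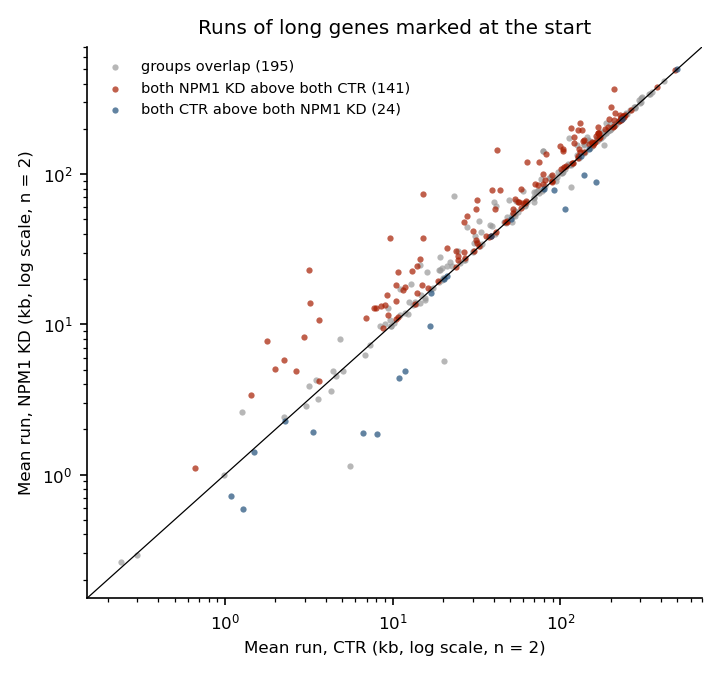
Mean run in CTR (kb, log scale, x axis) against mean run in NPM1 KD (kb, log scale, y axis), n = 2 libraries each, for the 360 long genes marked at the start, with the line of equal runs. Red marks the 141 genes with both NPM1 KD libraries above both CTR libraries and blue the 24 with the reverse, and most points lie on or near the line.

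In a limma fit of log2(run + 1000 bp) over the 9778 protein-coding genes with a mean run of at least 1 kb, 363 of the 953 long genes could be tested. Of these, 11 had a longer run in NPM1 KD at an adjusted p under 0.05, and 0 had a shorter one. Over all genes tested 1.45% passed as longer (142 genes) and 0.0511% as shorter (5 genes). At an unadjusted p under 0.05, 44 long genes were longer and 3 shorter, beside 841 and 80 of all 9778 genes. The median log2 difference was 0.05 in long genes and 0.03 in all genes tested. With the replicate number as a block no long gene passed in limma, the smallest adjusted p being 0.0976. The number of runs called also moved when 1 library was left out, as given in the closing section. For covered bp no long gene of 469 tested passed in limma (smallest adjusted p of 0.106), with 0.00973% of all 10278 genes passing. At an unadjusted p under 0.05, 125 long genes were higher and 3 lower in NPM1 KD, beside 1540 and 45 of all 10278 genes.

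In the genes with the smallest adjusted p the 2 libraries of a group stopped at almost the same place, which the fit favours. The SE there reflects the small shift of a peak edge between 2 libraries. It does not measure how often a gap over 5 kb would recur in further replicates. Supt3 (chr17:44777152-45119290), a subunit of the SAGA coactivator complex, had a run of 15.1 and 15.1 kb in CTR and of 73.8 and 73.9 kb in NPM1 KD. The log2 difference was 2.22 (limma SE 0.0026, adjusted p = 0.000198). The longer run also takes in the start of the overlapping gene Runx2, described below. Ppp1r9a (chr6:4902917-5165661), the actin-binding scaffold neurabin of protein phosphatase 1, ran to 41.7 and 42.1 kb in CTR and to 143.6 and 143.5 kb in NPM1 KD (limma log2 difference 1.75, SE 0.0069, adjusted p = 0.00194). Plce1, a phospholipase C that acts downstream of Ras, had no peak at the start in either CTR library and runs of 7.73 and 8.03 kb in NPM1 KD (limma adjusted p = 0.00498). It passed the filter on mean run only through its NPM1 KD values, and its CTR runs of 0 have no spread. Its p is therefore no evidence of a longer run, though the gene is counted among the 11. Broad peaks covered 1.0% and 1.7% of its body in CTR and 1.2% and 0.7% in NPM1 KD. Meis2, a homeodomain factor of neural development, reached 134.4 and 135.6 kb in CTR and 196.6 and 196.7 kb in NPM1 KD, close to the end of its 202.8 kb body (limma log2 difference 0.54, SE 0.0062, adjusted p = 0.00900). Pde10a, a phosphodiesterase of cAMP and cGMP, reached 166.4 and 167.1 kb against 188.8 and 188.6 kb (limma log2 difference 0.18, SE 0.0037, adjusted p = 0.0175). The other 6 were Arl15, Tshz2, Phlpp1, Ssh2, Rgl1 and Chn2, with limma adjusted p between 0.0264 and 0.0463. In the narrow lists 5 of the 11 had both NPM1 KD runs above both CTR runs (Ppp1r9a, Meis2, Phlpp1, Ssh2 and Rgl1), some by little. The narrow runs of Phlpp1 were 73.7 and 73.1 kb in CTR and 74.9 and 75.8 kb in NPM1 KD. Those of Ssh2 were 117.2 and 115.6 kb against 190.5 and 117.9 kb, and those of Rgl1 3.26 and 3.13 kb against 6.54 and 6.71 kb. A wider separation stayed in Ppp1r9a and Meis2. In Supt3 the narrow runs were 15.1, 9.22, 18.3 and 9.13 kb in the order CTR 1, CTR 2, NPM1 KD 1 and NPM1 KD 2, so the groups overlapped and the gain seen in the broad lists was absent. In Plce1 only NPM1 KD 2 had a narrow run, of 13.5 kb. In Pde10a the narrow runs were 188.8, 167.2, 166.6 and 188.5 kb in the same order, and in Arl15 they were 129.0, 128.9, 129.7 and 129.0 kb. In Pde10a the groups thus overlapped, and in Arl15 the narrow runs differed by under 1 kb.

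What lay between the CTR end and the NPM1 KD end was mostly not bare in CTR. In the 17 genes with a stretch over 20 kb a median of 39.2% of it was under broad peaks in CTR 1 and 33.4% in CTR 2, against 58.8% in NPM1 KD 1 and 55.3% in NPM1 KD 2. In 12 of the 17 both CTR runs had stopped at a gap of 10 kb or less. In Supt3 the gaps were of 6.13 kb in CTR 1 and 8.72 kb in CTR 2, and the 58.7 kb beyond were covered over 36.5% and 25.8% in CTR and 46.6% and 38.6% in NPM1 KD. Runx2, the bone transcription factor whose body overlaps Supt3, stopped at the same gaps from the other side and so is not a separate observation. Its CTR runs went no farther than 16.4 kb. The stretch beyond the gap in Supt3 thus takes in the start of Runx2 and the mark that runs from it, and cannot be credited to Supt3 alone. In Ssh2, the cofilin phosphatase slingshot 2, the 81.6 kb between the ends were covered over 67.1% and 56.5% in CTR and 68.7% and 72.6% in NPM1 KD. In Ppp1r9a the 101.3 kb were covered over 34.1% and 33.9% in CTR and 72.9% and 72.1% in NPM1 KD, and in Meis2 the 61.1 kb over 11.2% and 4.68% against 47.2% and 39.98%. The stretches were chosen by the run ends of the same lists, so a higher cover in NPM1 KD is in part set by that choice and is given as a description. Genes with under 10% in both CTR libraries were Pitpnc1 and Xkr6, 2 of the 17.

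**Figure D4:**
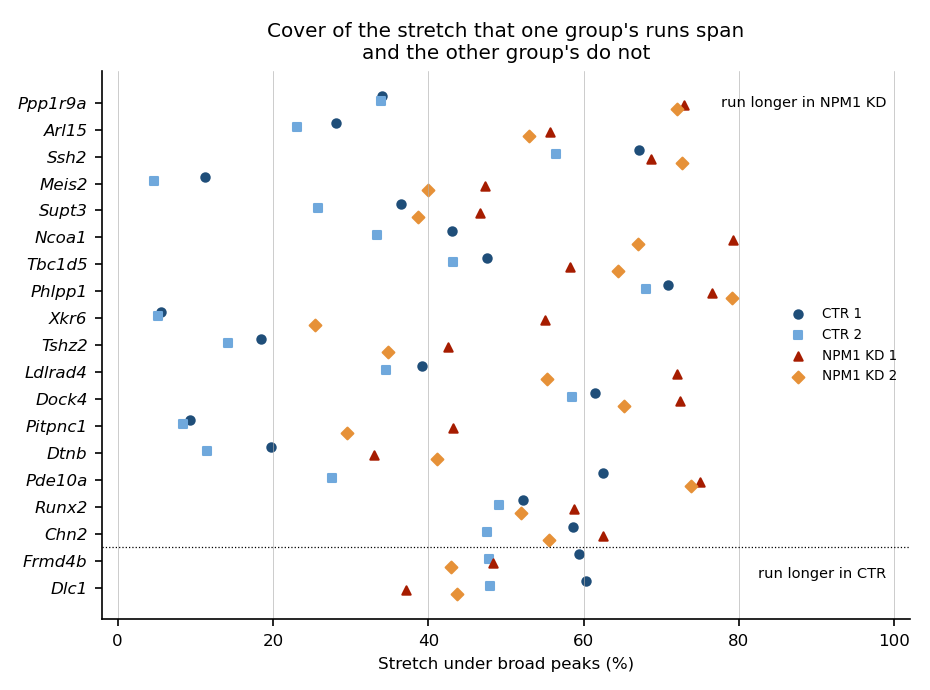
Share of the stretch (%, x axis) between the run ends of the groups that lies under broad peaks in each library, for the 17 long genes whose NPM1 KD runs and the 2 whose CTR runs go over 20 kb farther. The CTR points of Meis2, Xkr6 and Pitpnc1 lie near 10% or below, and those of Phlpp1, Ssh2 and Dock4 lie between 56% and 71%.

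In several of the genes with the largest differences of mean run a single library led. Foxn3, a forkhead repressor, had runs of 365.3, 54.1, 366.7 and 366.7 kb, so CTR 2 alone was short and CTR 1 lay beside NPM1 KD. In B3galt1, a galactosyltransferase, NPM1 KD 1 reached 352.0 kb and the other libraries at most 203.0 kb. Arl15, a small GTPase of the ARF family, had 133.0 and 128.9 kb in CTR and 219.4 and 217.0 kb in NPM1 KD, and Ssh2 had 117.2 and 115.7 kb against 207.4 and 198.8 kb. In the other direction, Frmd4b, a FERM-domain scaffold, had 192.9 and 134.1 kb in CTR and 88.0 and 89.3 kb in NPM1 KD. Dlc1, a GTPase-activating protein, had 138.7 and 138.4 kb against 101.8 and 95.2 kb. In Chd9, a chromodomain helicase, only CTR 2 was long in the broad lists, at 153.8 kb, and the other 3 libraries stopped at 58.2 kb. In the narrow lists both CTR runs of Chd9 were long, at 153.4 and 152.3 kb, against 69.4 and 71.75 kb in NPM1 KD. Prkg1, a cGMP-dependent kinase, had 20.1 and 13.4 kb against 7.97 and 11.5 kb. None of these 4 genes with longer CTR runs passed in limma.

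By function, the lists of long genes held different shares of marked genes. Of 28 cytoskeleton, trafficking and ubiquitin genes 20 were marked in all 4 libraries (71.4%), of 37 signalling entries 19 (51.4%) and of 34 transcription and RNA-binding regulators 17 (50.0%). Marked were also 7 of 24 common fragile site genes (29.2%), 8 of 35 adhesion and synapse organisers (22.9%) and 1 of 24 channels and receptors (4.17%). The share of all long genes was 37.8%. The 37 signalling entries come from 36 names, since Arhgap26 has both a marked and an unmarked entry. The median run of the marked genes was 171.3 kb in signalling genes, 125.8 kb in transcription and RNA-binding regulators, 61.3 kb in cytoskeleton and trafficking genes, 19.3 kb in adhesion genes and 19.2 kb in the fragile site list, beside 68.8 kb in all 360. The limma fit called 2 of 17 tested transcription regulators (Meis2 and Tshz2) and 1 of 19 signalling genes (Pde10a) as longer in NPM1 KD, and 0 as shorter, beside 11 of all 363 long genes tested and 1.45% of all genes. It called 0 of 19 tested cytoskeleton genes, 0 of 8 adhesion genes, 0 of 7 fragile site genes and 0 of 2 channels and receptors.

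Among adhesion genes, Cadm1 and Ncam1, immunoglobulin-domain adhesion molecules of neurons, had long runs of 278.2 to 283.3 kb and 230.8 to 234.3 kb. Cntnap2, Cntn4 and Cntn5, of the contactin family and its partners, were unmarked in all 4 libraries, whereas Cntn3, which is not in the list, was marked in all 4. Opcml, a GPI-anchored adhesion molecule, ran to 14.4 and 9.15 kb in CTR and 5.04 and 4.78 kb in NPM1 KD, and Dscam, a homophilic adhesion receptor, to 12.9 and 8.82 kb against 5.34 and 3.48 kb. In both genes all CTR values lay above all NPM1 KD values, as in Ncam1. Tenm3 and Tenm4, teneurins of synaptic adhesion, went the other way, with 164.6 and 109.3 kb in CTR against 165.8 and 167.1 kb in NPM1 KD, and 16.4 and 16.2 kb against 17.5 and 17.3 kb. None of these 5 passed in limma. Itpr1, the IP3-gated calcium channel of the endoplasmic reticulum, was the gene of the channel list marked in all 4 libraries, with 52.2 to 52.5 kb, and outside the list Kcnq5 and Cacna1d, a potassium and a calcium channel, were marked too, over 15.5 to 17.0 kb and 11.8 to 11.9 kb. Itpr2, a relative of Itpr1, had 1.99 and 0 kb in CTR and 5.65 and 7.21 kb in NPM1 KD. The ionotropic glutamate receptor genes Grin2a, Grin2b, Grik2, Gria4 and Grid1 were unmarked.

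Among transcription and RNA-binding genes, both NPM1 KD runs were longer in 8 of the 17 marked and both CTR runs in 0, beside 141 and 24 of all 360 marked long genes (39.2% and 6.67%). These counts were 5 and 4 of 19 for signalling genes, 10 and 1 for cytoskeleton and trafficking genes, 2 and 3 for adhesion genes, 1 and 0 for the fragile site list and 0 and 0 for channels, and no list was tested against the rest. Ncoa1, a nuclear receptor coactivator, had 65.9 and 60.0 kb in CTR and 121.4 and 120.8 kb in NPM1 KD, and Camta1, a calmodulin-binding transcription activator, 79.9 and 76.7 kb against 103.5 and 96.1 kb. Neither passed in limma. Mllt3, which encodes a partner of DOT1L itself, ran to 210.1, 152.5, 157.3 and 155.9 kb, with CTR 1 alone high. Among cytoskeleton genes, Dst, a giant linker of filament systems, stopped at 170.3 to 170.4 kb in all libraries, and Mad1l1, a spindle checkpoint protein, ran to 176.4, 111.8, 175.7 and 176.5 kb, with CTR 2 alone short. In the fragile site list Fhit, a diadenosine hydrolase, was unmarked and Wwox, an oxidoreductase with WW domains, was marked over 4.53, 4.30, 5.56 and 4.27 kb of 913.1 kb. The longest run in that list belonged to Tcf4, described above, whose place among fragile site genes is doubtful.

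Some long genes without a mark at the annotated start carried a long marked stretch inside. Of the 106 genes that were unmarked at the start but marked in the body in all 4 libraries, the longest stretch lay at an internal TSS of the same gene in 48, 51, 49 and 50 (CTR 1, CTR 2, NPM1 KD 1, NPM1 KD 2), and in 34, 28, 34 and 32 others it held the TSS of another gene. The median stretch was 35.9, 31.7, 31.8 and 32.3 kb. Overlapping gene models were counted separately, so these counts are not of separate stretches. Pcdha2 to Pcdha7, Gm42416, Gm37013 and Gm37388 shared the same stretch of 54.6 kb in CTR 2. Among the 106 genes, the 3 with the most mark were Rbms3, Cacna1c and Frmd4a. Rbms3, an RNA-binding protein, had a mean of 421 kb under peaks, and its longest stretch began 373.7 to 374.1 kb from the annotated start and held the TSS of another gene. Cacna1c, the L-type calcium channel subunit of neurons and heart, was covered over 52.5% to 55.7% of the body, and its longest stretch, of 329.7 to 332.7 kb, began 86.8 to 87.5 kb inside, at an internal TSS. Frmd4a, a FERM-domain scaffold, carried 313.3 to 313.8 kb from 281.9 to 282.0 kb inside, again at an internal TSS. The stretches of Cacna1c and Frmd4a held the TSS of another gene as well. The stretch of Rbms3 was 267.3 to 267.7 kb long, so in all 3 genes its length was nearly the same in every library. Taken from the APPRIS principal transcript, whose start lay over 3 kb downstream in 174 long genes, 376 genes were marked at the start in all 4 libraries, and 33 of the 570 unmarked genes became marked.

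The 5 longest gene models show the same range. Gm20388, of 4434.9 kb, spans many other genes, Gse1 among them, and had a run of 46.8 to 47.5 kb. The model of Fgfr2 (chr7:130162451-133123350, minus strand), a fibroblast growth factor receptor gene, has an annotated length of 2960.9 kb. From its outermost annotated start the run went to 130.0, 128.8, 130.1 and 124.7 kb. Peaks of other genes in that stretch were not separated from its own, so the run cannot be credited to the receptor alone. Ptprd, Cntnap2 and Lsamp, cell surface proteins of neurons, had no mark at the start, and Ptprd and Cntnap2 had no broad peak in the body.

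Set beside shorter genes, long genes were marked less often and over more kb. Per library 37.9% to 39.7% of long genes were marked at the start, against 52.7% to 55.0% of the 1419 genes of 100 to 200 kb, 59.0% to 60.4% of those of 50 to 100 kb, 57.6% to 59.2% of those of 20 to 50 kb and 39.9% to 42.3% of those under 20 kb. The difference from genes of 100 to 200 kb was -14.9 ± 0.305 percentage points (SD over 4 libraries, lower in 4 of 4, with the smallest p that an exact sign-flip permutation test over 4 libraries allows, 1 in 8). The median run was 16.3 kb ± 3.32 longer in long genes, longer in 4 of 4 libraries (again the smallest p of that test), and took up 18.5 ± 1.26 percentage points less of the body. The 4 libraries come from 1 cell line, so this spread is that between libraries only.

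**Figure D5:**
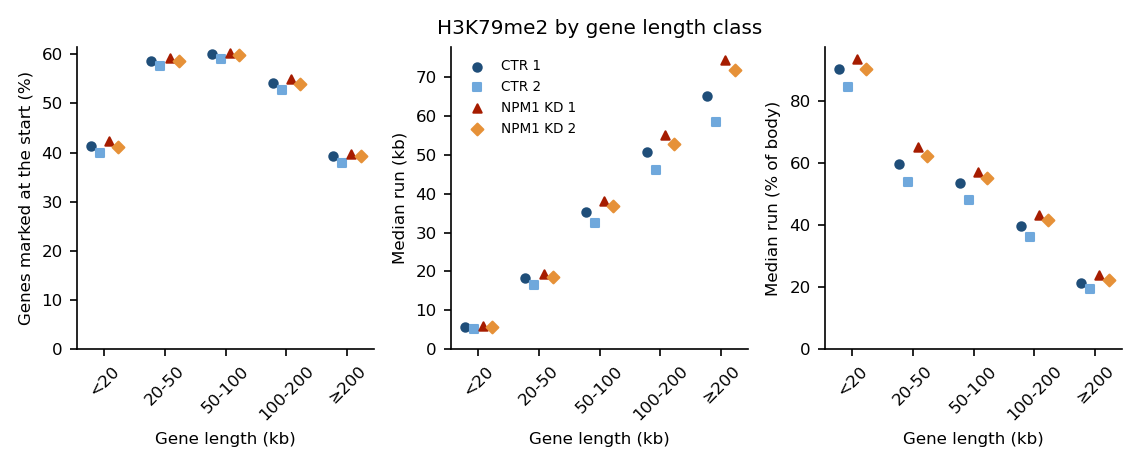
Genes marked at the start (%, left), median run (kb, middle) and median run as a share of the body (%, right) by gene length class (kb, x axis) in each library. From 20 kb upward the median run rises with length while its share of the body falls, and in each class CTR 2 is the lowest point for both.

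The genes next to the length limit were the following. Just under it, Morc1 (199663 bp), a germ cell protein, was unmarked, and Atp9b (199919 bp), a phospholipid-transporting ATPase homologue, ran to 46.6, 21.8, 46.8 and 46.7 kb. Just above it, Pcbp3 (200030 bp), an RNA-binding protein, was marked over 198.8 to 199.7 kb and Plcxd3 (200062 bp), a phospholipase domain protein, over 38.8 kb in all 4 libraries.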

How the data were processed

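H3K79me2 ChIP-seq (antibody ab3594, paired-end reads) was analysed from the deposited peak lists of 2 CTR and 2 NPM1 KD libraries. Per the study's methods and the submitters' processing notes, the authors aligned reads to mm10 with Bowtie2 2.3.4.1, removed reads with a mapping quality of 5 or less and called peaks in each library with MACS2 (2.2.6 in the notes). Peak names mark the broad lists as made from filtered alignments and the narrow lists carry the aligner's name only. Whether the pooled input of each group, which has no list here, served in calling is not given in the sources used here. The authors deposited for each peak its position, a score (10 times −log10 q, cut to a whole number), a fold ratio of pileup over background, and −log10 p and −log10 q. Scores and q serve within a list only. Read counts and totals are not given, so depth is unknown and no count test was run. The fold and p of narrow peaks were solved for a background pileup, which met the deposited p within 0.01 in at least 99.998% of peaks.

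Runs, covered bp and positions were computed from the broad lists with pandas 2.3.3, scipy 1.17.1 and numpy 2.4.6 under Python 3.11.15 on GENCODE M21 (GRCm38, the same build), with the outermost annotated start as the TSS. Values per library were compared with two-sided exact permutation tests, and values per gene with limma 3.58.1 (R 4.3.3), Benjamini-Hochberg adjusted over all tested genes, on log2(bp + 1000) with a mean of at least 1000 bp. A fold on that scale understates short runs. Both steps were tested on simulated data. For limma these were normal values with each gene's fitted spread, so they cannot show how the fit treats a run that jumps at a gap. Promoter statistics came from the GRCm38 sequence and printed promoters from RefSeq, where 538 of 953 long genes had a start within 500 bp. Alternatives were the narrow lists, −log10 q of at least 5, lists of equal size, gaps of 2 and 10 kb, a window of 1 kb, genes overlapping no other coding gene, other pseudocounts, no filter, a trend in limma, a replicate block and leaving out each library. A gap of 20 kb, the APPRIS start, the cover between run ends and the marker genes were added after seeing the data.

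Genes were named by rule. These were the 2 longest runs of each list, the 10 longest runs, the 5 largest differences per direction among groups that do not overlap, the 5 longest genes, the 5 longest with 80% cover, the 3 with most mark but none at the start, the 5 with the smallest adjusted p and the 2 genes on each side of the length limit. Other genes were named after their values were seen, and a few genes that the rule names are not reported here. The long genes and the lists were chosen with earlier results of these data known.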

Additional observations from a re-analysis of the deposited data

How the results depend on the processing

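The differences of median run, of the share of runs over 50 kb, of the share marked at the start and of covered length between NPM1 KD and CTR kept their direction under every alternative tried, as did those between long genes and genes of 100 to 200 kb. Their size moved with the choice. The median run differed by 11.2 kb as reported, by 4.66 kb in the narrow lists, 5.26 kb with peaks of −log10 q of at least 5, 6.25 kb with lists of equal size, 7.76 kb with gaps of 2 kb, 15.5 kb with gaps of 10 kb and 20.8 kb with gaps of 20 kb, the last chosen after seeing the data. Leaving out 1 library at a time gave 7.86 to 14.6 kb, 1.81 to 4.86 percentage points for runs over 50 kb, 0.210 to 1.57 percentage points for the share marked and 3.02 to 5.78 Mb of covered length. Long genes with a longer run in NPM1 KD numbered 166 to 274 when 1 library was left out, and those with a longer run in CTR 38 to 92. Fewer libraries then have to separate, and the shares over all genes were not computed for these counts. Those longer in CTR numbered 14 with gaps of 10 kb and 11 with gaps of 20 kb, against 24. The limma count of long genes with a longer run was 11 as reported, 19 with gaps of 2 kb and 2 to 29 without 1 library, and the count with a shorter run was 0 as reported, 1 in the narrow lists, 2 at −log10 q of at least 5 and 0 to 1 without 1 library. Over all genes, runs called shorter numbered 5 as reported, 8 in the narrow lists, 9 with lists of equal size or gaps of 2 kb, 3 with gaps of 10 kb, 11 at −log10 q of at least 5 and 4 to 12 without 1 library, and runs called longer ranged from 34 to 339 without 1 library. For covered bp limma called 36 genes with more and 4 with less at −log10 q of at least 5 over all genes, against 1 and 0. It called 2 long genes at −log10 q of at least 5 and 0 as reported. Where 1 library is left out of limma, the lone library is assumed to vary like the other group. With the replicate number as a block the limma count was 0 for runs, while the differences between groups per library are the same by construction, 11.2 kb for the median run. Over 9713 genes the residuals of CTR and NPM1 KD libraries with the same number correlated at 0.153. The study's methods give every replicate its own passage and batch of transfection, so libraries of 1 number may share a batch, but with only 2 pairs this could not be settled from the data. The cause of these changes was not tested.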

Other observations

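Long genes outside the rule were counted in the same way, with no test against the others. On chromosome X 5 of 45 protein-coding genes of 200 kb upward were marked at the start in all 4 libraries. Among them Sh3kbp1, an adaptor of receptor endocytosis, had runs of 35.2 to 35.4 kb. Dmd, the 2257.3 kb dystrophin gene, was unmarked.

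Of 101 noncoding genes of 200 kb upward on chr1 to chr19, 11 were marked at the start in all 4 libraries. The longest of these runs was in Pvt1, a long noncoding RNA, with 212.1, 210.2, 212.6 and 212.2 kb in CTR 1, CTR 2, NPM1 KD 1 and NPM1 KD 2. The group difference was not tested in either set.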
